A study of Mus musculus with 15 samples.

Results

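The genes of cholesterol synthesis and other targets of the transcription factor SREBP2 were followed through bulk RNA sequencing of mouse liver. They are 27 genes, taken by symbol from a list that runs from the mevalonate enzymes to the late sterol enzymes, regulators and transport genes, of 26839 genes in the 3 deposited tables. All 27 symbols were found. Other genes of the pathway are not analysed here.

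Livers came from male C57BL/6J mice, with 15 libraries in 5 groups of 3, and every group carried an adeno-associated virus of serotype 8 (AAV8). In the hairpin arm, AAV8 with an H1 promoter made a short hairpin RNA against Gpnmb, a glycoprotein gene of macrophages and other cells, and the hairpin control made a scrambled sequence. In the transgene arm, AAV8 with the liver-specific promoter of thyroxine binding globulin (TBG) expressed Activin A, a ligand of the transforming growth factor beta family, and its control expressed green fluorescent protein (GFP). For 16 weeks these 4 groups ate the FPC diet, which models non-alcoholic steatohepatitis (NASH), and drank sugar water. The fifth group received the TBG GFP virus and stayed on standard chow with normal water for the same time. The labels give no age, and they do not say whether each library is a different mouse, so p-values measure the spread between these libraries, which may be partly technical. In whole liver, fewer hepatocytes and less RNA per hepatocyte cannot be told apart.

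Cells make cholesterol from acetyl-CoA by way of mevalonate, isoprenoid diphosphates, squalene and lanosterol. SREBP2, encoded by Srebf2, is held in the endoplasmic reticulum by the escort protein SCAP and the retention protein INSIG1 when sterols are plentiful, and when sterols are scarce it is carried to the Golgi, cut free and sent to the nucleus, where it turns on the enzyme genes and Insig1 itself. The liver is a main site of this synthesis and of the disposal of cholesterol as bile acids. Excess sterol also activates the nuclear receptor LXR, whose targets include sterol exporters and Mylip, which encodes a ubiquitin ligase that lowers uptake of low-density lipoprotein.

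Libraries held 15276879 to 23467867 counts. Levels below are CPM per kilobase of gene (counts scaled to the library total and the gene's length), scaled over all 15 libraries. Gpnmb stood at 0.223, 0.194 and 0.506 CPM per kilobase in the hairpin libraries, against 4.02, 5.59 and 5.03 in the scramble libraries, and Inhba, the Activin A subunit gene, at 4.02, 3.76 and 3.97 in Activin A livers, against 1.26, 1.23 and 1.27 in GFP livers on the NASH diet. The hepatocyte genes were abundant in every library, with Alb between 17516 and 35130 CPM per kilobase. In the NASH diet GFP group, libraries 1 and 3 stood far apart in the genes described here, and results that rest on library 3 are given with and without it.

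The diet comparison asked how NASH diet GFP livers differed from chow GFP livers under the same vector. The sterol pathway was lower in NASH diet livers almost throughout. Of the 27 genes, 19 fell and 1 rose at an adjusted p under 0.05 (edgeR quasi-likelihood test, Benjamini-Hochberg adjustment over 14388 genes), against 17.0% of all genes tested called in either direction, 5.82% lower and 11.2% higher. The median log2 fold change of the 27 genes was -1.30, and that of all genes was -0.01. In 26 of the 27 genes every NASH diet library lay below every chow library, an order found in 16.6% of all genes tested, and Mylip lay wholly above (18.9%; 35.5% of all genes did not overlap in either direction). The summed level of the 19 enzymes was 306, 252 and 169 CPM per kilobase in NASH diet GFP livers, against 644, 551 and 759 in chow livers. Markers of other cells moved in the same comparison. Of 8 hepatocyte markers 4 were lower and none was higher (median log2 fold change -0.76), while 10 of 10 macrophage, 7 of 8 stellate cell, 4 of 7 biliary and 3 of 6 endothelial markers were higher. The hepatocyte markers summed to between 26371 and 32139 CPM per kilobase in NASH diet livers and between 39725 and 56462 in chow livers. The macrophage markers summed to between 383 and 544 in NASH diet livers and between 122 and 167 in chow livers, and none of the markers of the 5 cell types had 0 counts in any library. Spp1 is on both the macrophage and the biliary list. The part of cell makeup in the falls was not tested.

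Large falls were in Sqle and Idi1. Sqle, which encodes squalene epoxidase (chromosome 15, 59315077 to 59331192, GRCm38), stood at 2.10, 1.77 and 0.805 CPM per kilobase in NASH diet GFP livers, against 19.2, 11.9 and 16.5 in chow livers. Every NASH diet library was several fold below the lowest chow library, and the log2 fold change was -3.30 ± 0.32 (SE, n = 3 per group, edgeR adjusted p = 0.000224), a level 10.2% of that on chow. Idi1, which encodes the isomerase of the basic isoprenoid units (chromosome 13, 8885501 to 8892451), stood at 5.63, 2.57 and 1.18 CPM per kilobase in NASH diet livers, against 30.6, 27.8 and 33.7 in chow livers. The chow libraries were close together and the NASH diet libraries were spread over more than a 4-fold range, with a log2 fold change of -3.25 ± 0.43 (edgeR adjusted p = 0.000889), which was -3.99 without NASH diet library 1. Fdft1, the squalene synthase gene that commits farnesyl diphosphate to sterols (chromosome 14, 63145150 to 63179578), stood at 13.3, 12.9 and 8.99 CPM per kilobase in NASH diet livers, against 38.0, 27.7 and 37.1 in chow livers, with a log2 fold change of -1.51 ± 0.19 (edgeR adjusted p = 0.000751). Its groups did not overlap either.

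Fdps, the farnesyl diphosphate synthase gene, fell by 2.69 ± 0.65 on the log2 scale (edgeR adjusted p = 0.0186), with only 2 counts in NASH diet library 3. The log2 fold change of Fdps was -3.98 without NASH diet library 1 and -3.52 with limma. Of 4208 exonic bases of Fdps, 1124 are shared with Gm43738 on the same strand in GENCODE vM21, so its count is uncertain. Lss, the lanosterol synthase gene, fell by 1.18 ± 0.30. Ggps1, which makes geranylgeranyl diphosphate for non-sterol products, had a log2 fold change of -0.55 ± 0.18 and missed the threshold (edgeR adjusted p = 0.0639).

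Late sterol genes, which turn lanosterol into cholesterol, fell in 7 of 8 cases, with a median log2 fold change of -1.70. Msmo1, the methylsterol monooxygenase gene (chromosome 8, 64718139 to 64733792), stood at 8.72, 5.62 and 2.98 CPM per kilobase in NASH diet livers, against 44.6, 32.1 and 48.6 in chow livers (log2 fold change -2.81 ± 0.34, edgeR adjusted p = 0.000562). Nsdhl, which encodes a sterol dehydrogenase of the next step (chromosome X, 72918557 to 72958514), stood at 7.08, 5.31 and 3.77 in NASH diet livers, against 27.9, 28.6 and 28 in chow livers (log2 fold change -2.34 ± 0.21, edgeR adjusted p = 0.000150). In both genes the groups were far apart, and the chow libraries of Nsdhl were almost level while those on the NASH diet were not. Tm7sf2, a sterol reductase gene (chromosome 19, 6062821 to 6077197), had the smallest p of the 27. It stood at 7.14, 6.48 and 8.21 CPM per kilobase in NASH diet livers, against 28.2, 27.9 and 36.8 in chow livers (log2 fold change -2.05 ± 0.17, edgeR adjusted p = 7.87e-05). The groups were far apart, and NASH diet library 3 was the highest of its group in Tm7sf2 and Scap alone of the 27 genes. In GENCODE vM21, where its coordinates differ from the deposited ones, Tm7sf2 shares 532 of 4403 exonic bases with Vps51 on the same strand. Its count is therefore uncertain. The sterol demethylase gene Cyp51 (-2.45 ± 0.34), the last-step reductase gene Dhcr7 (-1.35 ± 0.29), the isomerase gene Ebp (-0.99 ± 0.17) and the ketosteroid reductase gene Hsd17b7 (-0.84 ± 0.17) fell as well. The desaturase gene Sc5d did not pass (-0.74 ± 0.30, edgeR adjusted p = 0.118).

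Of the 5 mevalonate genes 3 fell. The mevalonate kinase gene Mvk had a log2 fold change of -1.92 ± 0.27, Hmgcs1, whose enzyme makes a precursor of mevalonate, of -1.71 ± 0.26, and the phosphomevalonate kinase gene Pmvk of -1.10 ± 0.33. Mvd, which encodes a decarboxylase, did not pass at -1.43 ± 0.48 (edgeR adjusted p = 0.0681), with NASH diet libraries at 6.67, 3.94 and 1.07 CPM per kilobase, against 13.3, 7.46 and 11.9 in chow livers. The thiolase gene Acat2 did not pass at -0.59 ± 0.22 (edgeR adjusted p = 0.102). Among transport genes and other targets, the sterol transfer gene Stard4 (-1.30 ± 0.32), the retinol dehydrogenase gene Rdh11 (-1.35 ± 0.23) and the acetyl-CoA synthetase gene Acss2 (-1.11 ± 0.21) fell, and the endoplasmic reticulum membrane gene Tmem97 did not pass (-0.51 ± 0.17, edgeR adjusted p = 0.0723). All 27 genes had an unadjusted p under 0.05, a share not counted over all genes.

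The regulators were less uniform than the enzymes. Insig1 (chromosome 5, 28071363 to 28078662) stood at 88.0, 57.7 and 20.7 CPM per kilobase in NASH diet livers, against 137, 122 and 131 in chow livers. The groups did not overlap, but with the wide spread on the NASH diet its log2 fold change of -1.19 ± 0.39 did not pass (edgeR adjusted p = 0.0653). Srebf2 itself (chromosome 15, 82147181 to 82205379) stood at 7.60, 7.34 and 6.99 in NASH diet livers, against 12.5, 10 and 9.05 in chow livers (-0.49 ± 0.16, edgeR adjusted p = 0.0584). Scap (chromosome 9, 110333288 to 110384950) fell, with 10.5, 11.2 and 16.0 in NASH diet livers, against 23.6, 21.2 and 20.6 in chow livers (-0.76 ± 0.18, edgeR adjusted p = 0.0180). Its groups did not overlap, with NASH diet library 3 nearest to chow. Mylip (chromosome 13, 45389742 to 45412022) was the only one of the 27 genes that rose, with 5.64, 4.48 and 4.08 in NASH diet livers, against 1.94, 3.02 and 2.88 in chow livers (0.90 ± 0.22, edgeR adjusted p = 0.0192).

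Some of these calls rested on single libraries, and calls over all genes changed as well. Over all genes the calls went from 2445 to 1517 without chow library 1. They were 1524 without NASH diet library 2 and 1355 without NASH diet library 1. They were 2233 without NASH diet library 3 and 2157 without chow library 3. Without chow library 1, 14 genes were called, and Pmvk, Fdps, Lss, Scap, Mylip and Stard4 were not (Pmvk -1.09, Fdps -2.57, Lss -1.08, Scap -0.72, Mylip 0.69 and Stard4 -1.31 on the log2 scale). Without NASH diet library 2, 16 were called, without Fdps (-2.50), Lss (-1.24), Scap (-0.68) and Stard4 (-1.35). Without NASH diet library 1, 21 were called, with Mvd (-2.07), Sc5d (-1.09), Insig1 (-1.69) and Tmem97 (-0.69) gained and Pmvk (-1.19), Scap (-0.64) and Mylip (0.75) lost. Without NASH diet library 3, Insig1 was called (-0.80) and Pmvk was not (-0.81), and without chow library 3, Srebf2 was called (-0.61) and Pmvk was not (-0.85). Hmgcs1, Mvk, Idi1, Fdft1, Sqle, Cyp51, Tm7sf2, Msmo1, Nsdhl, Ebp, Dhcr7, Rdh11 and Acss2 were called under all 13 alternatives tried. Scaled by library size alone, the median of all genes was 0.24, against -0.01, with 2671 genes higher and 405 lower against 1607 and 838 in the scaling used here, and 15 of the 27 genes were still lower and 1 higher, without Pmvk, Lss, Hsd17b7 and Scap.

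**Figure D1:**
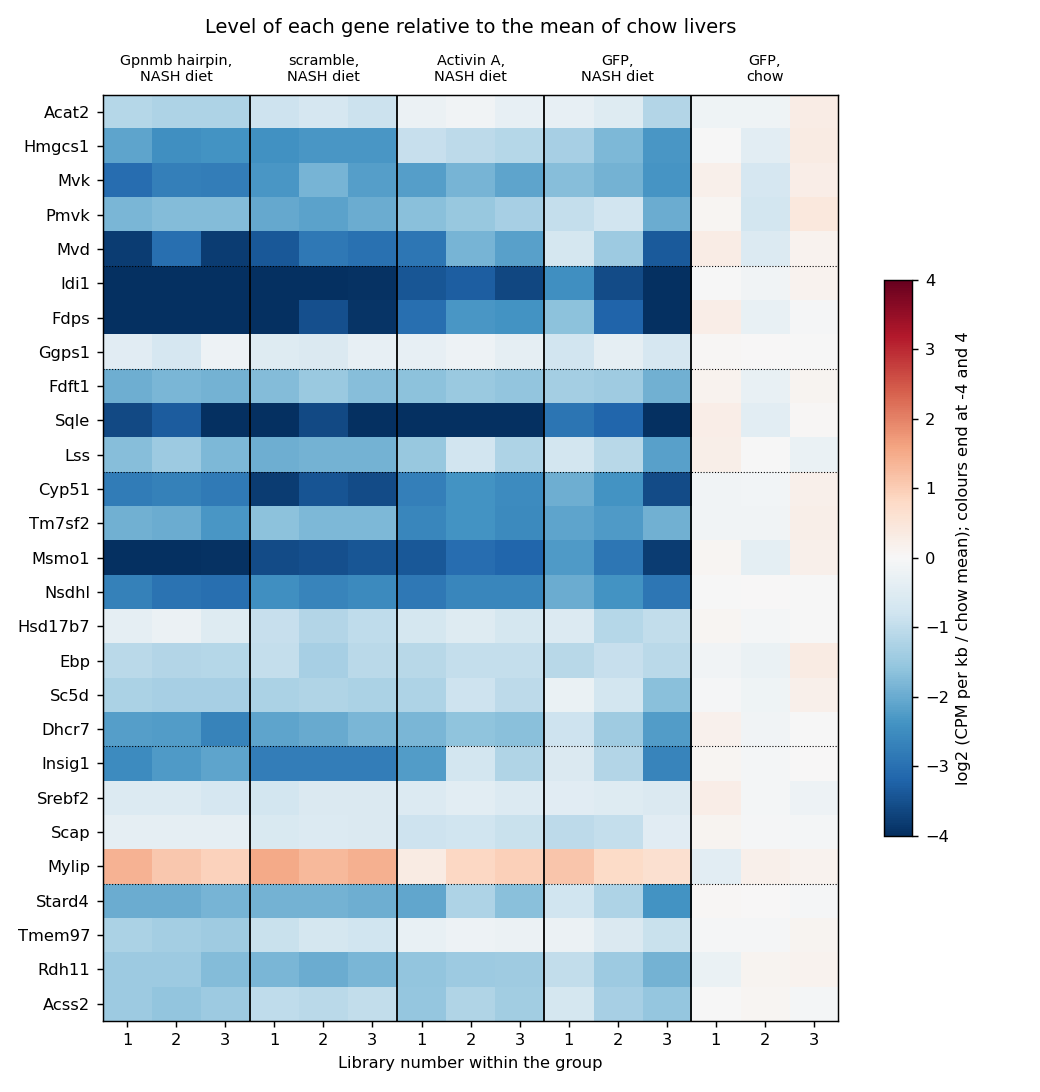
Each row is a gene and each column a library, coloured by log2 of its level (CPM per kilobase) over the mean of the 3 chow GFP libraries, with the 4 NASH diet groups left of chow and colours ending at -4 and 4. Blue fills the NASH diet columns, dark in Idi1, Fdps, Sqle and Msmo1 and pale in Ggps1 and Srebf2, Mylip is the row that turns red, and NASH diet GFP library 3 is darker than libraries 1 and 2 in most rows.

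The other NASH diet groups were set against the same chow libraries, so these comparisons are not independent of the one above. In scramble livers, 26 of the 27 genes fell and Mylip rose (edgeR adjusted p under 0.05, fit over all 5 groups), against 34.3% of all genes called in either direction and 17.4% lower, with a median of -1.93 over the 27 genes and -0.02 over all genes. In that fit NASH diet GFP livers too had 26 genes lower than chow and Mylip higher, with 4500 calls over all genes, 2025 of them lower. The diet counts given earlier came from a fit of the GFP groups alone, so they cannot be set against the counts here. Scramble libraries lay wholly below chow in 26 genes, against 21.5% of all genes (46.2% in either direction). Vector and diet differ together in that comparison, and transgene and diet in the one of Activin A, and cannot be told apart. In Activin A livers 23 fell and Mylip rose, against 23.7% of all genes called and 11.8% lower, with a median of -1.49, and Acat2, Ggps1 and Tmem97 were not called. Activin A libraries lay wholly below chow in 25 genes, against 16.6% of all genes (35.5% in either direction). Sqle stood at 0.756, 1.31 and 0.986 CPM per kilobase in scramble livers and at 0.767, 0.972 and 0.778 in Activin A livers. Its log2 fold change against chow was -3.98 ± 0.30 in scramble livers (edgeR adjusted p = 7.16e-08) and -4.25 ± 0.31 in Activin A livers (edgeR adjusted p = 5.68e-08), where it was 5.26% of the chow level. The cell markers moved here too. In scramble livers against chow 8 of 8 hepatocyte markers were lower (median log2 fold change -0.97), and 10 of 10 macrophage, 7 of 8 stellate cell, 3 of 7 biliary and 4 of 6 endothelial markers were higher. In Activin A livers against chow 6 of 8 hepatocyte markers were lower (median -0.67), and 6 of 10 macrophage, 5 of 8 stellate cell and 2 of 6 endothelial markers were higher. The part of cell makeup in these falls was not tested. The log2 fold change of Idi1 was -4.14 ± 0.36 in scramble livers and -3.45 ± 0.35 in Activin A livers. The log2 fold change of Mylip was 1.40 ± 0.19 in scramble livers (edgeR adjusted p = 3.79e-05) and 0.72 ± 0.20 in Activin A livers (edgeR adjusted p = 0.0140).

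Ggps1, at a branch out of the sterol pathway, had a log2 fold change against chow of -0.50 ± 0.15 in scramble livers and -0.31 ± 0.15 in Activin A livers, and without scramble library 1 or 2 its scramble call was lost (-0.47 and -0.44). The log2 fold change of Srebf2 was -0.66 ± 0.11 in scramble livers and -0.52 ± 0.11 in Activin A livers. Insig1 was at 19.1, 19.2 and 19.2 CPM per kilobase in scramble livers, far below the chow libraries, and at 27.4, 78.0 and 56.0 in Activin A livers (log2 fold change -1.28 ± 0.37, edgeR adjusted p = 0.0172, lost without Activin A library 1 at -0.96). Mylip was not called in Activin A livers without chow library 1 (0.54) or without Activin A library 2 (0.66) or 3 (0.60). Calls over all genes for scramble livers went from 5379 to 4622 and 3807 without scramble library 1 and 2. For Activin A livers they went from 3706 to 2962 without chow library 1. They were 2625, 2851 and 2794 without Activin A library 1, 2 and 3. Scaled by library size alone, the median of all genes was 0.30 for scramble and 0.21 for Activin A livers against chow, with 5161 genes higher and 973 lower against 2659 and 2720 for scramble, and 3415 higher and 964 lower against 1853 and 1853 for Activin A. Under that scaling Srebf2 was not called in scramble (-0.34) or Activin A livers (-0.31), nor were Ggps1 (-0.17) and Scap (-0.28) in scramble livers.

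**Figure D2:**
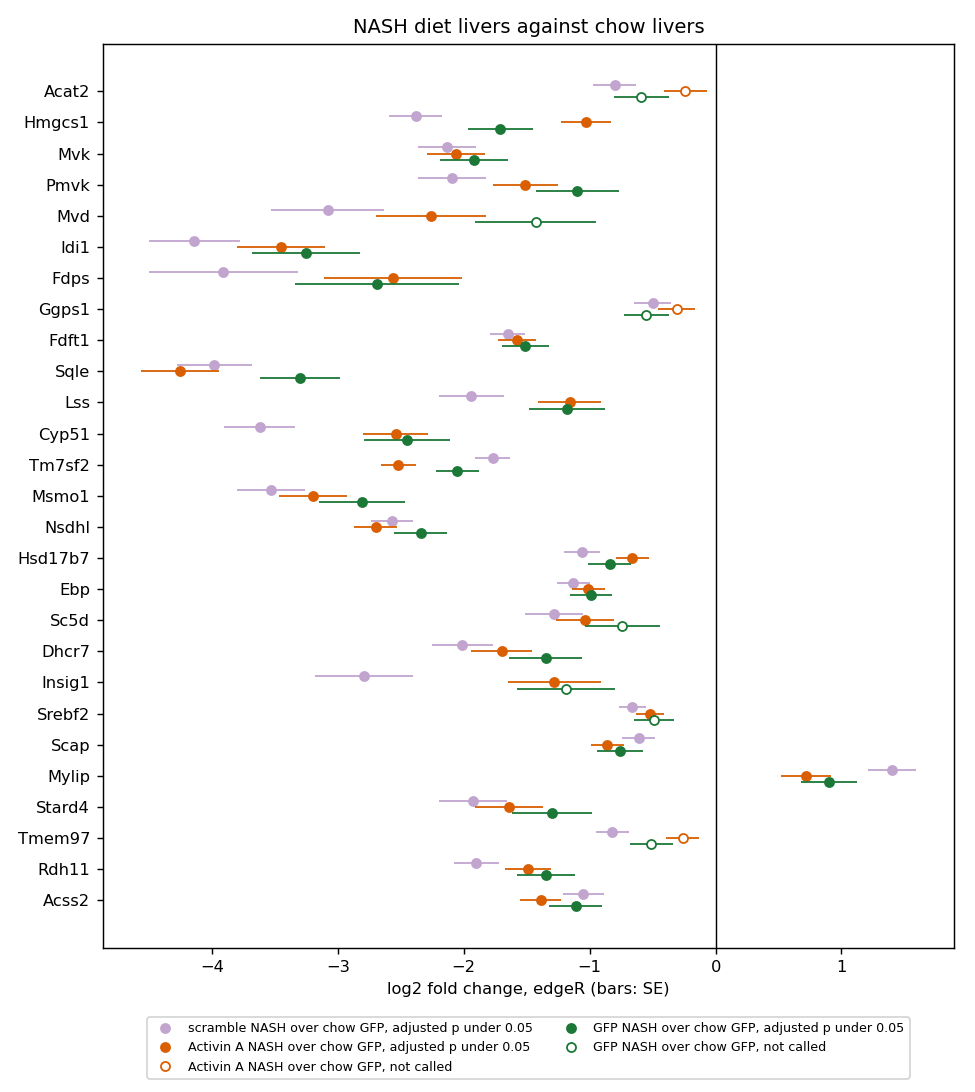
Log2 fold change against chow GFP livers (horizontal axis) with SE bars for each gene, in scramble, Activin A and GFP livers on the NASH diet. Filled circles passed an adjusted p under 0.05. All 27 genes but Mylip lie left of 0 in each comparison, and Sqle and Idi1 lie farthest left. GFP values come from a fit of the GFP groups alone, the others from a fit over all 5 groups.

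Because most of these genes were lower together, the bases before their start sites were read from RefSeq (GRCm38.p6), in which 23 of the 27 genes have a window of 250 bases before to 50 bases after a start site. The bases before the start site are shown for the 5 genes with the smallest p on the diet that have an entry, for the 2 regulators Insig1 and Srebf2, and for Hmgcs1, which was added after its match was seen. For Tm7sf2 the bases shown lie wholly inside the deposited coordinates of the gene, 6062821 to 6077197. Capitals mark CCAAT (the NF-Y box), GGGCGG (the Sp1 box) and CACNCCAC (the core of the sterol regulatory element, SRE), each on either strand.
Tm7sf2, chr19:6067851-6068100, - strand: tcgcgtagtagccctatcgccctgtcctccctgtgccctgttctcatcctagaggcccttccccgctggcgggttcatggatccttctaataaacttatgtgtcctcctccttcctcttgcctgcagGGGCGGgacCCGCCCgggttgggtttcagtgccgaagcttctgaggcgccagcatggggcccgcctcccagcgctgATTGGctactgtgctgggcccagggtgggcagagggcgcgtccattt
Nsdhl, chrX:72918271-72918520, + strand: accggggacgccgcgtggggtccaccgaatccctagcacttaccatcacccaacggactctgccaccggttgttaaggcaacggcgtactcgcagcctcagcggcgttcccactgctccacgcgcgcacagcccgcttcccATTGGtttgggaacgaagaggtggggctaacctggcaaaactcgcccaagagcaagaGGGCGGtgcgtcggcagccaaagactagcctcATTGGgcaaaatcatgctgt
Msmo1, chr8:64733579-64733828, - strand: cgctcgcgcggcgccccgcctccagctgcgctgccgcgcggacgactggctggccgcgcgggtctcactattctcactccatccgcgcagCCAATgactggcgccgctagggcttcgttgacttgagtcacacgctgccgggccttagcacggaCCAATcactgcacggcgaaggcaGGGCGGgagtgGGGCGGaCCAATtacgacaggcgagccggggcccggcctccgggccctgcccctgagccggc
Idi1, chr13:8885356-8885605, + strand: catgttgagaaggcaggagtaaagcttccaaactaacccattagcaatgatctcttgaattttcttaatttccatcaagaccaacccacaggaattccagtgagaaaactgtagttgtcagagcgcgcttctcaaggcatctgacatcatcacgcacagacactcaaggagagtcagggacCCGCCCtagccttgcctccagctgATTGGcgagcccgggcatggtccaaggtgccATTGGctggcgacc
Cyp51, chr5:4104698-4104947, - strand: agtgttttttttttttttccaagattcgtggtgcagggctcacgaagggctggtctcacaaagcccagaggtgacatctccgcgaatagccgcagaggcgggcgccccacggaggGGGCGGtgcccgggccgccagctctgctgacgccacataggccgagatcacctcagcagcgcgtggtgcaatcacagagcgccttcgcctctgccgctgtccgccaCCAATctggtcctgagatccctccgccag
Insig1, chr5:28071162-28071411, + strand: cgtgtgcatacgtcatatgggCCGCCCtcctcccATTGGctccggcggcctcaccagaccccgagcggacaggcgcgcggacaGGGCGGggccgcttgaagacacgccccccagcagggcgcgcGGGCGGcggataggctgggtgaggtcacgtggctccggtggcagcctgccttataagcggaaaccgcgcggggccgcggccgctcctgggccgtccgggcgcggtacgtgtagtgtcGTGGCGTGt
Srebf2, chr15:82147019-82147268, + strand: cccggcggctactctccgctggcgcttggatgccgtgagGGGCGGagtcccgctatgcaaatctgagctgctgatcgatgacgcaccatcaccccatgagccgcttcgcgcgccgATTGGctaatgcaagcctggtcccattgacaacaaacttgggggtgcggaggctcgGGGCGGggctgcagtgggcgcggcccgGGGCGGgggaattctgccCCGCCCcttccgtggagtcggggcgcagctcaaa
Hmgcs1, chr13:119690101-119690350, + strand: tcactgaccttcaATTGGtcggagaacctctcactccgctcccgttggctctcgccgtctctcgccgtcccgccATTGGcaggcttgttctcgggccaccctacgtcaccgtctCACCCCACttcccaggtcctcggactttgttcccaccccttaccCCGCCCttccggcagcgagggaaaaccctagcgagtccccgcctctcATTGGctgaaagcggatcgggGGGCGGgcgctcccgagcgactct

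In the first listed window of each gene, CCAAT was found in 19 of the 23 genes (82.6%), against 37.9% of 27025 genes with a window and 38.8% of those tested on the diet. GGGCGG was in 20 of 23 (87.0%), against 35.9% of all genes and 62.1% of tested genes. The SRE core CACNCCAC was in 3, namely Acat2, Hmgcs1 and Insig1 (13.0% against 6.12%), and the full TCACNCCAC, which contains the core, was in Hmgcs1 (4.35% against 1.22%). The E-box CACGTG was in 4 genes (17.4%, against 7.24% of all genes and 10.1% of tested genes). Acat2, Dhcr7, Scap and Rdh11 had no CCAAT in this window, and Pmvk, Ggps1 and Rdh11 no GGGCGG. Genes with other windows in the table gained matches when any window was counted, to 21 of 23 for CCAAT against 41.1% of all genes. Mylip, which rose on the diet, holds CCAAT and GGGCGG too. A match describes letters and not a bound site.

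**Figure D3:**
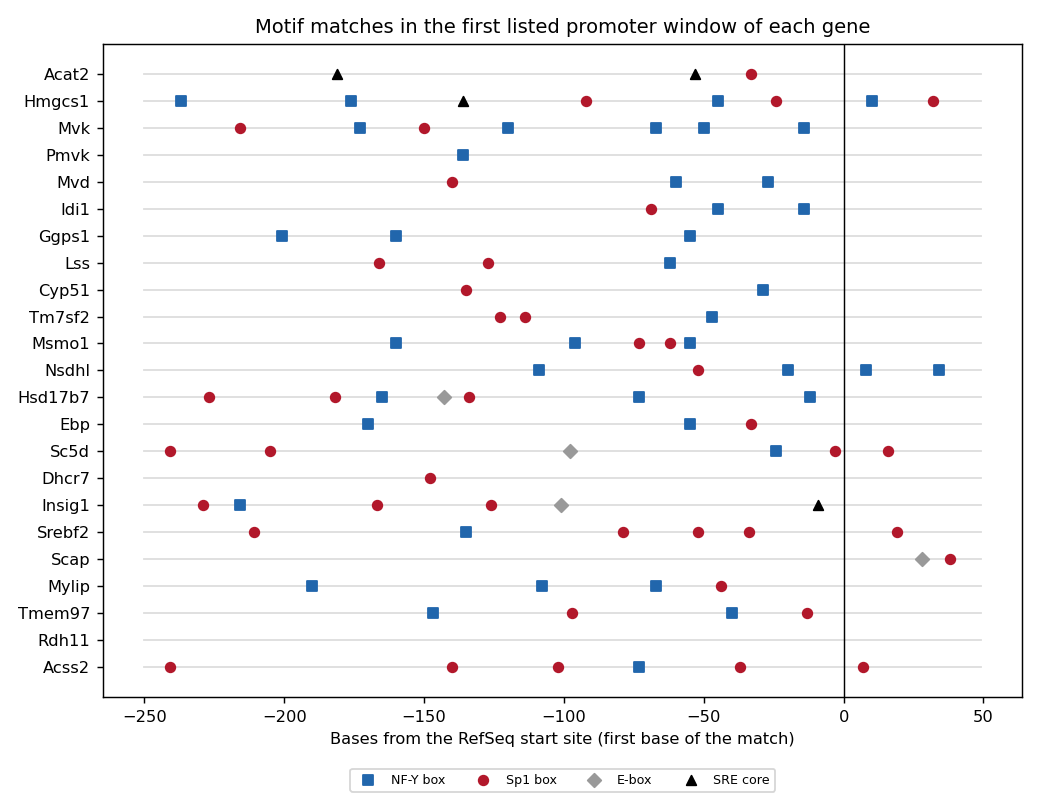
Positions of motif matches (bases from the RefSeq start site, 0 is the first transcribed base) in the first listed window of 23 genes, for the NF-Y box, the Sp1 box, the E-box and the SRE core. Squares and circles fill most rows, and triangles for the SRE core are in the rows of Acat2, Hmgcs1 and Insig1.

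Libraries of the NASH diet GFP group differed widely in these genes. Library 1 was the highest of the group in 22 of the 27 genes and library 3 the lowest in 22, whereas over all 14388 genes library 1 was the highest in 30.2% and library 3 the lowest in 36.8%. Library 1 stood above library 2 and library 2 above library 3 in 21 of the 27 genes (77.8%), against 17.0% of all genes. The median coefficient of variation of the 27 genes was 31.6% in NASH diet GFP livers, where that of all genes was 15.0%. It was 11.2% for the 27 genes in hairpin livers, 6.31% in scramble livers, 11.3% in Activin A livers and 16.3% in chow livers. In 13 genes the NASH diet GFP libraries spanned more than 2-fold, most of all Fdps, at 0.776, 0.262 and 0.0256 CPM per kilobase. Library 3 was closer on a log scale to the scramble mean than to the mean of libraries 1 and 2 in 25 of the 27 genes, a share not counted over all genes. Among the Activin A livers library 2 was the highest in 22 genes and library 1 the lowest in 22, with Insig1 at 27.4 in library 1 and 78.0 in library 2. The labels give no batch or date for any library.

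**Figure D4:**
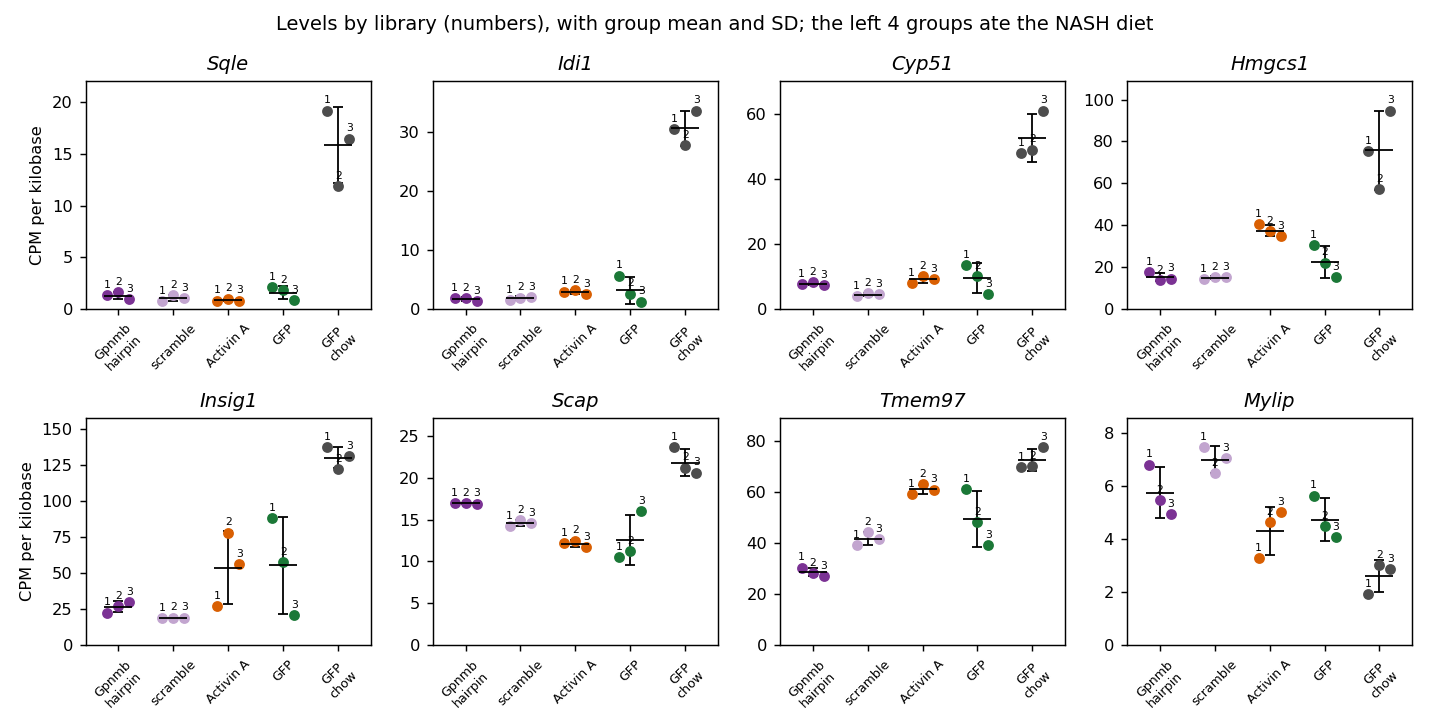
Levels (CPM per kilobase, linear axis from 0) of 8 of the genes in each library, numbered within its group, with bars for group mean and SD (n = 3). Hairpin and scramble libraries cluster tightly, NASH diet GFP library 1 is the highest and library 3 the lowest of its group in Idi1, Cyp51, Hmgcs1, Insig1 and Tmem97, and library 3 is the highest in Scap, at 16.0.

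The Activin A comparison asked what Activin A changed on the NASH diet, against GFP. None of the 27 genes passed an adjusted p under 0.05 in edgeR (5.52% of all 14598 genes tested were called, 1.66% higher and 3.86% lower), and 3 had an unadjusted p under 0.05. DESeq2 called 3 of the 27 genes, with 1258 calls over all genes, and limma called 0, with 675 over all genes. The median log2 fold change was -0.10, with 0.00 over all genes, and the summed level of the 19 enzymes was 230, 263 and 243 CPM per kilobase in Activin A livers, against 306, 252 and 169 in GFP livers. Tm7sf2 had the smallest p, with 5.05, 5.90 and 5.34 in Activin A livers, against 7.14, 6.48 and 8.21 in GFP livers. The libraries did not overlap, and the log2 fold change was -0.44 ± 0.12 (edgeR adjusted p = 0.0603). Hmgcs1 stood at 40.3, 37.0 and 34.7 in Activin A livers, against 30.4, 22 and 15.1 in GFP livers. It too did not overlap, in the other direction, with a log2 fold change of 0.71 ± 0.21 (edgeR adjusted p = 0.0849). Of the 27 genes 2 lay wholly above (Hmgcs1 and Ggps1) and 1 wholly below. Of all genes 13.5% lay wholly above and 12.9% wholly below (26.4% in either direction). Sqle, the remaining gene with an unadjusted p under 0.05, had a log2 fold change of -0.91 ± 0.32 with overlapping libraries (edgeR adjusted p = 0.142).

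The absence of calls did not hold when a GFP library was left out. Without GFP library 3, 7 genes were called, with Hmgcs1 higher (0.50, edgeR adjusted p = 0.0465) and Pmvk, Mvd, Sqle, Msmo1, Sc5d and Dhcr7 lower in Activin A livers. Calls over all genes went from 806 to 1435 without that library. Without GFP library 1 Hmgcs1 was called (1.00, edgeR adjusted p = 0.0159), and without GFP library 2 Tm7sf2 was called (-0.51, edgeR adjusted p = 0.0496). Over all genes 591 were called without GFP library 1 and 627 without GFP library 2. The regulators gave log2 fold changes near 0, with Insig1 at -0.06 ± 0.47, Srebf2 at 0.00 ± 0.09, Scap at -0.07 ± 0.15 and Mylip at -0.15 ± 0.18. Insig1 had no direction that held, since it was 0.44 without GFP library 1 and 0.26 without Activin A library 1. For Srebf2, Activin A livers had 7.12, 7.80 and 7.25 CPM per kilobase, against 7.60, 7.34 and 6.99 in GFP livers. For Scap they had 12.2, 12.5 and 11.7, against 10.5, 11.2 and 16.0, and without GFP library 3 the log2 fold change was 0.15. For Mylip they had 3.29, 4.63 and 5.02, against 5.64, 4.48 and 4.08. All 10 macrophage markers were lower in Activin A livers, with a sum of 164 to 186 CPM per kilobase, against 383 to 544 in GFP livers, and 1 of 8 hepatocyte markers was higher. Stellate cell markers were lower in 4 of 8 cases (median log2 fold change -0.50) and biliary markers in 2 of 7 (median -1.59), and of 6 endothelial markers 1 was higher and 1 lower. The part of cell makeup in the Activin A values was not tested.

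The fold changes of the rest under Activin A, all below the threshold, ranged on the log2 scale from -0.78 ± 0.53 in Mvd to 0.38 ± 0.19 in Acat2. Of the mevalonate genes Mvk was at -0.10 ± 0.21 and Pmvk at -0.38 ± 0.26. Of the isoprenoid and squalene genes Idi1 was at -0.17 ± 0.43, Fdps at 0.17 ± 0.74, Ggps1 at 0.28 ± 0.16, Fdft1 at -0.04 ± 0.15 and Lss at 0.06 ± 0.31. Of the late sterol genes Cyp51 was at -0.06 ± 0.31, Msmo1 at -0.36 ± 0.30, Nsdhl at -0.33 ± 0.21, Hsd17b7 at 0.21 ± 0.15, Ebp at 0.02 ± 0.10, Sc5d at -0.26 ± 0.28 and Dhcr7 at -0.32 ± 0.28. Stard4 was at -0.31 ± 0.34, Tmem97 at 0.28 ± 0.15, Rdh11 at -0.11 ± 0.20 and Acss2 at -0.24 ± 0.20. The SE was widest in the genes that spread most among the GFP libraries, such as Fdps, Mvd and Insig1.

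The hairpin comparison asked what knockdown of Gpnmb changed on the NASH diet, against the scrambled hairpin. Genes were called in both directions. Of 26 genes tested, Cyp51, Hsd17b7, Insig1, Scap and Rdh11 rose and Mvk, Tmem97, Msmo1, Acss2 and Acat2 fell, 10 in all (38.5%), against 24.3% of all 14845 genes, 12.2% higher and 12.0% lower. The median log2 fold change was -0.03, and the enzyme sum was 192, 186 and 179 CPM per kilobase in hairpin livers, against 193, 188 and 192 in scramble livers. Macrophage markers were lower in 8 of 10 cases, with sums of 173 to 200 in hairpin livers and 307 to 447 in scramble livers, and 4 of 8 hepatocyte markers were higher, with sums of 31784 to 34755 in hairpin livers and 27436 to 32655 in scramble livers. Stellate cell markers were lower in 6 of 8 and endothelial markers in 3 of 6 cases, and 0 of 7 biliary markers were called (2 with an unadjusted p under 0.05). The part of cell makeup in these changes was not tested. Insig1, Scap, Rdh11, Mvk, Msmo1, Acss2 and Acat2 were no longer called when all 5 groups shared a single estimate of spread, a fit that called Cyp51, Hsd17b7 and Tmem97. Calls over all genes went from 3601 to 1880 in that fit. Scaled by library size alone, where the median of all genes was -0.11, 3 genes were higher and 9 lower, against 5 and 5 (over all genes 1006 higher and 2464 lower, against 1813 and 1788).

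Cyp51, the first of the late sterol genes (chromosome 5, 4081145 to 4104746), stood at 7.53, 8.07 and 7.35 CPM per kilobase in hairpin livers, against 3.79, 4.83 and 4.41 in scramble livers. The lowest hairpin library was well above the highest scramble library, with a log2 fold change of 0.84 ± 0.10 (edgeR adjusted p = 0.000351), but hairpin livers remained far under the 47.8 to 60.9 of chow livers. Hsd17b7 (chromosome 1, 169949535 to 169969241) stood at 11.9, 13.0 and 10.6 in hairpin livers, against 8.0, 6.78 and 7.61 in scramble livers (0.69 ± 0.09, edgeR adjusted p = 0.000673). Insig1 stood at 22.7, 27.3 and 30.0 in hairpin livers, against 19.1, 19.2 and 19.2 in scramble livers (0.50 ± 0.09, edgeR adjusted p = 0.00365). For both, every hairpin library was above every scramble library. Scap stood at 17.0, 17.0 and 16.9 in hairpin livers, against 14.2, 14.9 and 14.6 in scramble livers (0.25 ± 0.06, edgeR adjusted p = 0.0146), a small difference between 2 tight groups, lost without scramble library 3 at the same 0.25. Rdh11 rose by 0.36 ± 0.11 on the log2 scale, a call lost without hairpin library 1 (0.30) or 2 (0.31) or scramble library 1 (0.39), 2 (0.30) or 3 (0.38). Calls over all genes went from 3601 to 3496 and 2673 without hairpin library 1 and 2. They were 3150, 2214 and 1923 without scramble library 1, 2 and 3.

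Msmo1, which acts after Cyp51 in the pathway, fell under the hairpin. It stood at 2.33, 2.54 and 2.71 CPM per kilobase in hairpin livers, against 3.53, 3.62 and 3.87 in scramble livers, without overlap (-0.51 ± 0.10, edgeR adjusted p = 0.00386). Tmem97 (chromosome 11, 78541817 to 78550777) stood at 30.4, 28.3 and 27.1 in hairpin livers, against 39.1, 44.2 and 41.6 in scramble livers (-0.52 ± 0.08, edgeR adjusted p = 0.00120). Acss2, which makes acetyl-CoA from acetate (chromosome 2, 155517948 to 155585724), stood at 7.12, 6.56 and 7.07 in hairpin livers, against 9.59, 9.21 and 9.75 in scramble livers (-0.44 ± 0.07, edgeR adjusted p = 0.00131). Every hairpin library was below every scramble library in these 3 genes. Mvk (-0.71 ± 0.19) and Acat2 (-0.40 ± 0.08) fell too. The Mvk call was lost without hairpin library 1 (-0.62) or scramble library 2 (-0.57) or 3 (-0.75). Calls over all genes were 3496, 2214 and 1923 without these libraries, against 3601 with every library. Srebf2 stood at 7.19, 7.11 and 6.61 in hairpin livers, against 6.31, 7.05 and 7.02 in scramble livers, with overlapping libraries (0.06 ± 0.08). Mylip stood at 6.80, 5.47 and 4.95, against 7.45, 6.47 and 7.06 in scramble livers (-0.26 ± 0.12, edgeR adjusted p = 0.152), and was called lower without hairpin library 1 (-0.41).

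Fdps had 3, 6 and 6 counts in hairpin livers, against 11, 20 and 17 in scramble livers. It was not tested here, since it did not pass the expression filter (filterByExpr), which scales the minimum count to library size. The other 14 genes, none of them called, had log2 fold changes from -0.39 ± 0.31 in Mvd to 0.33 ± 0.25 in Sqle. Dhcr7 was at -0.35 ± 0.13, Nsdhl at -0.34 ± 0.12, Tm7sf2 at -0.29 ± 0.11 and Fdft1 at -0.23 ± 0.08, each with every hairpin library below every scramble library. Pmvk at 0.32 ± 0.12 and Lss at 0.29 ± 0.11 had every hairpin library above. Over the genes tested 7 lay wholly above and 9 wholly below, against 18.6% and 22.0% of all genes (40.6% in either direction). Idi1 was at -0.09 ± 0.20, Ggps1 at 0.06 ± 0.15, Hmgcs1 at 0.07 ± 0.09, Sc5d at -0.04 ± 0.06, Ebp at 0.01 ± 0.09 and Stard4 at -0.01 ± 0.07. Of the 5 genes that rose under the hairpin, Cyp51, Hsd17b7, Scap and Rdh11 had fallen on the diet, and of the 5 that fell, Mvk, Msmo1 and Acss2 had fallen on the diet too. Among all 27 genes 19 had fallen on the diet, so neither group stood far from that share.

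**Figure D5:**
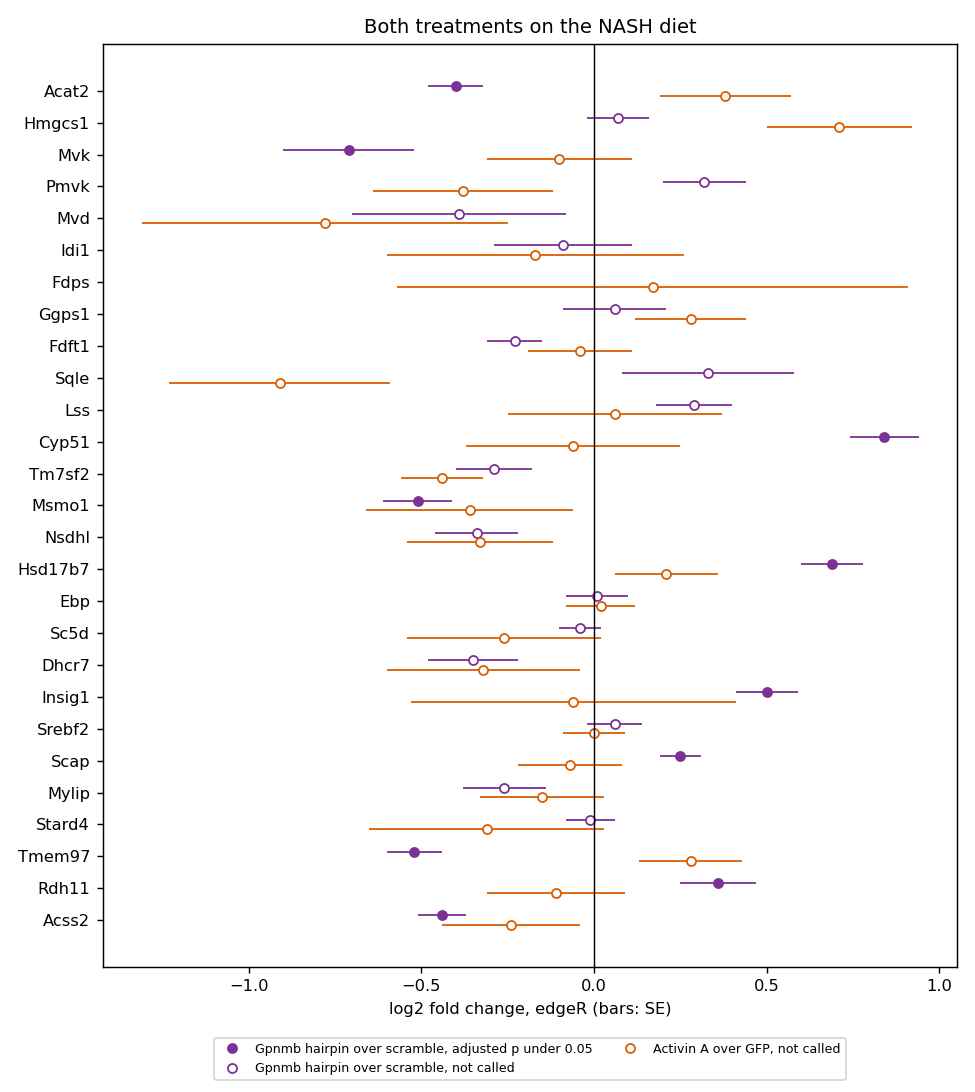
Log2 fold change (horizontal axis) with SE bars for each gene under the Gpnmb hairpin against scramble and under Activin A against GFP, both on the NASH diet. Filled circles passed an adjusted p under 0.05. The hairpin has 5 filled circles on each side of 0, from -0.71 in Mvk to 0.84 in Cyp51, and the Activin A bars are longer, with none filled.

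The difference between both treatment effects was tested in a joint fit of the 4 NASH diet groups. For 2 of the 27 genes (7.41%) the Activin A effect was higher than the hairpin effect, against 6.76% of all 15545 genes called in either direction, 3.42% higher and 3.34% lower. They were Tmem97 (0.82 ± 0.18 on the log2 scale, edgeR adjusted p = 0.0118) and Acat2 (0.80 ± 0.22, edgeR adjusted p = 0.0435). Tmem97 stood at 59.2, 62.9 and 60.9 CPM per kilobase in Activin A livers, against 61.1, 48.3 and 39.3 in GFP livers. Acat2 stood at 24.5, 25.7 and 22.8 in Activin A livers, against 22.9, 19.9 and 12.6 in GFP livers, and at 13.0, 12.1 and 12.2 in hairpin livers, against 16.2, 17.9 and 15.9 in scramble livers. In both genes the Activin A libraries overlapped the GFP libraries and the hairpin libraries lay below the scramble libraries. The Acat2 call was lost without any single Activin A, hairpin or scramble library, with values between 0.72 and 0.84, and with library size alone (0.82). Without those single libraries 607 to 971 of all genes were called, against 1051 with every library. Without GFP library 3, 6 genes differed, namely Tmem97, Acat2, Pmvk, Sqle, Cyp51 and Rdh11, while calls over all genes went from 1051 to 1291.

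Scramble and GFP livers on the NASH diet, which differ in vector, gave 0 calls among the 27 genes in edgeR. Of all 15665 genes 0.741% were called, 0.172% higher and 0.568% lower. Among the 27 genes 16 had an unadjusted p under 0.05, a share not counted over all genes. DESeq2 called 3 of the 27 genes, with 555 calls over all genes, and limma called 0, with 168 over all genes. The median log2 fold change was -0.50, with -0.01 over all genes. Insig1 had 19.1, 19.2 and 19.2 CPM per kilobase in scramble livers, against 88.0, 57.7 and 20.7 in GFP livers, so that the lowest GFP library was close to the scramble libraries (-1.56 ± 0.37, edgeR adjusted p = 0.0589). Cyp51 had 3.79, 4.83 and 4.41 in scramble livers, against 13.5, 10.1 and 4.38 in GFP livers (-1.13 ± 0.26, edgeR adjusted p = 0.0511). Without GFP library 3, 16 genes were called, 15 lower and 1 (Scap) higher in scramble livers, with Insig1 at -1.96 and Cyp51 at -1.47. Over all genes 863 were called without that library, 361 higher and 502 lower, against 116 with it.

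Lists of genes around the pathway were counted in the same comparisons, and their difference from the pathway was not tested. On the diet 11.2% of all genes were called higher and 5.82% lower. Of 11 LXR targets 7 rose and none fell, with a median log2 fold change of 0.88, among them the sterol exporter genes Abcg1 (1.76 ± 0.20) and Abcg5 (1.23 ± 0.16), and Arl4c (2.17 ± 0.39). Of 15 SREBP1 targets of lipid synthesis tested, 4 rose and none fell (median 1.12), with the elongase gene Elovl5 at 1.98 ± 0.22 and 2 desaturase genes, Fads2 (1.65 ± 0.23) and Scd1 (2.52 ± 0.35), and the acetyl-CoA carboxylase gene Acacb at 1.05 ± 0.29. Scd1 is counted on both the LXR and the SREBP1 list, and Srebf1 on both the LXR list and the list of SREBP regulators. Srebf1, which encodes SREBP1 and is also an LXR target, averaged 75.9 ± 26.9 CPM per kilobase in NASH diet livers and 43.3 ± 4.18 in chow livers (SD, n = 3 each; 0.85 ± 0.25, edgeR adjusted p = 0.0435). Of 13 storage and transfer genes 4 rose and 1 fell, including the cholesterol esterifying enzyme gene Soat1 (2.06 ± 0.22) and the ester hydrolase genes Nceh1 (1.33 ± 0.13) and Lipa (0.74 ± 0.17), and the transfer gene Gramd1b was at 1.58 ± 0.28. Bile acid genes fell in 5 of 11 cases, led by Cyp7b1 of the alternative pathway (-2.65 ± 0.30) and the reductase gene Akr1d1 (-1.16 ± 0.13), with the bile acid CoA ligase gene Slc27a5 at -0.86 ± 0.17, while Cyp39a1 rose (1.04 ± 0.19). None of the 13 non-sterol users of isoprenoids was called by edgeR, and none had an unadjusted p under 0.05 (smallest p in Dolk, at -0.35 ± 0.18). Of 10 other SREBP regulators Srebf1 rose and Rnf139, a ubiquitin ligase gene, fell (-0.52 ± 0.14). In scramble livers against chow 3 of 16 SREBP1 targets rose and 3 fell (median 0.37, fit over all 5 groups). There 0 of the 10 regulators rose and 3 fell, and 9 of 11 LXR targets rose and 1 fell. Over all genes 17.0% were called higher and 17.4% lower. In Activin A livers against chow 12 of 16 SREBP1 targets rose and 0 fell (median 1.37), against 11.8% of all genes in each direction.

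Under the hairpin, where 12.2% of all genes were called higher and 12.0% lower, 5 of the 10 SREBP regulators rose and 1 fell. Insig2, which encodes a second retention protein, averaged 182 ± 1.62 CPM per kilobase in hairpin livers and 106 ± 8.09 in scramble livers (0.80 ± 0.08, edgeR adjusted p = 9.34e-05), and Srebf1 averaged 33.2 ± 9.76 in hairpin livers and 60.7 ± 2.11 in scramble livers (-0.85 ± 0.17, edgeR adjusted p = 0.00533). The protease gene Mbtps2 (0.43 ± 0.11) also rose. SREBP1 targets of lipid synthesis rose in 4 and fell in 4 of 16 cases, with Thrsp at -3.18 ± 0.15, Aacs at -1.40 ± 0.13, Fasn at -0.66 ± 0.09 and Acacb at 0.72 ± 0.07. Of 11 LXR targets 2 rose, Abcg5 (0.74 ± 0.15) and Abcg8 (0.64 ± 0.14), and 4 fell, including Arl4c (-1.0 ± 0.21). Bile acid genes rose in 4 and fell in 2 of 10 cases. Cyp7b1 averaged 134 ± 28 CPM per kilobase in hairpin livers and 35.8 ± 3.56 in scramble livers (1.93 ± 0.14), and Cyp7a1, the rate-limiting enzyme of the classical pathway, averaged 25.1 ± 17.0 in hairpin livers and 103 ± 11.3 in scramble livers (-2.01 ± 0.38), with Cyp39a1 at 1.12 ± 0.15 and Cyp8b1 at 0.59 ± 0.13. For Cyp7a1 the scramble group stood apart. It averaged 37.3 ± 14.0 in NASH diet GFP livers, 45.1 ± 9.02 in Activin A livers and 39.1 ± 11.8 in chow livers. Storage genes rose in 2 and fell in 3 of 13 cases, with Soat1 at -0.89 ± 0.19, Gramd1b at -0.98 ± 0.18, Npc2 at -0.39 ± 0.08 and Nceh1 at 0.26 ± 0.06. Isoprenoid users rose in 2 (Zmpste24 0.28 ± 0.06 and Nus1 0.33 ± 0.09) and fell in 2 (Coq2 -0.38 ± 0.09 and Rabggta -0.32 ± 0.09) of 13.

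Under Activin A 1.66% of all genes were called higher and 3.86% lower. Srebf1 averaged 176 ± 20.7 CPM per kilobase in Activin A livers and 75.9 ± 26.9 in GFP livers (1.19 ± 0.24, edgeR adjusted p = 0.0193), the only one of the 10 regulators that passed. The LXR targets Abcg8 (0.89 ± 0.14) and Abcg5 (0.80 ± 0.14) rose besides Srebf1, and Arl4c fell (-1.11 ± 0.26). Soat1 (-0.97 ± 0.16), Npc2 (-0.46 ± 0.11) and Akr1d1 (-0.81 ± 0.12) fell, and the prenyltransferase subunit gene Rabggta rose (0.46 ± 0.10). None of the 16 SREBP1 targets of lipid synthesis was called by edgeR (1 with an unadjusted p under 0.05, Pcyt2 at 0.25 ± 0.11 having the smallest p). For Srebf1 the Activin A effect was higher than the hairpin effect by 2.05 ± 0.33 (edgeR adjusted p = 0.00215), and for Insig2 it was lower, at -1.18 ± 0.33 (edgeR adjusted p = 0.0459).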

How the data were processed

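Poly(A) RNA of liver was sequenced from 15 libraries after Qiagen RNeasy extraction and a TruSeq stranded mRNA kit, per the labels' protocols. The authors deposited 3 tables of raw counts per gene with FPKM beside them, on GRCm38 (mm10) per the submitters' processing notes. No source used here names the aligner, the counter, its strand setting or the annotation, so the counts of Hmgcs1, Idi1, Ggps1, Fdft1, Lss, Cyp51, Scap and Acss2, which overlap genes on the opposite strand in GENCODE vM21, are uncertain. The deposited FPKM were scaled per table and served as a check only. The NASH diet GFP counts are identical in the 2 tables that hold them (23148 shared genes, 0 different).

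Counts were tested with edgeR 4.0.16 (quasi-likelihood, TMM scaling, R 4.3.3) over all genes that passed filterByExpr with a minimum count of 10, with Benjamini-Hochberg adjustment and a threshold of 0.05. The diet, Activin A and hairpin comparisons each used their own 2 groups, the difference between treatments the 4 NASH diet groups, and the comparisons that cross tables all 5 groups. The diet, Activin A, scramble against GFP and chow comparisons share libraries and are not independent. Library totals were 15276879 to 23467867 counts. Every test script was tested on simulated data first.

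Members and gene lists were chosen with earlier results of these data known. Per-library values are given for the 6 genes with the smallest p among those called in each main comparison (the 2 with the smallest p where none was), for any gene called against the common direction, and for Insig1, Srebf2, Scap and Mylip. Of each related list, up to 4 called genes with the smallest p per comparison are named, or, with no call, the 1 with the smallest p. Values of other genes were added after they were seen. One result that this rule would name is not reported here. Alternatives were other scalings, no filter, DESeq2 1.42.0, limma 3.58.1 (voom), a replicate block, another set of fitted groups and each library left out. Promoter windows came from RefSeq (GRCm38.p6), with motifs searched on both strands. Counting intervals are not given for values with replicates.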

Additional observations from a re-analysis of the deposited data

Results flagged for a closer look

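For 2 of the 27 genes (7.41%, against 6.76% of all genes tested) a test of the difference itself separated the Activin A effect from the hairpin effect, in a joint fit of the 4 NASH diet groups. Tmem97 differed by 0.82 ± 0.18 on the log2 scale (edgeR adjusted p = 0.0118), from an Activin A effect of 0.28 ± 0.15 and a hairpin effect of -0.52 ± 0.08. Acat2 differed by 0.80 ± 0.22 (edgeR adjusted p = 0.0435), from an Activin A effect of 0.38 ± 0.19 and a hairpin effect of -0.40 ± 0.08. The Acat2 call was lost without any single Activin A, hairpin or scramble library (0.72 to 0.84), with library size alone (0.82) and in a fit over all 5 groups (0.78), and the Tmem97 call was kept under all of these. In both genes the hairpin effect was called and the Activin A effect was not.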

How the results depend on the processing

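Of the 27 genes, the number called under Activin A was 0 as reported, 1 with library size alone (Tm7sf2) or a fit over all 5 groups (Hmgcs1), and 3 without a filter or with DESeq2 (Hmgcs1, Sqle and Tm7sf2). With a fit over all 5 groups the diet count was 27 in place of 20, the hairpin count 3 in place of 10 and the difference between treatments 1 in place of 2. That difference was 1 with library size alone and 5 without a filter. Scramble against GFP gave 9 without a filter and 3 with DESeq2 in place of 0. The cause was not tested. With single libraries left out, the counts ran from 14 to 21 for the diet, 0 to 7 for Activin A, 7 to 12 for the hairpin, 1 to 6 for the difference between treatments, 26 to 27 for scramble against chow, 23 to 24 for Activin A against chow and 0 to 16 for scramble against GFP. Over all genes the called counts ran from 1355 to 4500 for the diet (2445 as reported), 248 to 1435 for Activin A (806), 1880 to 3613 for the hairpin (3601), 607 to 1481 for the difference between treatments and 13 to 863 for scramble against GFP.

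Genes near 0 changed sign. Under Activin A, Insig1 was 0.05 with limma, 0.26 without Activin A library 1, and from -0.45 to 0.44 over all libraries left out in turn. Srebf2 was -0.00 with RLE factors, DESeq2 and limma, -0.07 with library size alone, -0.03 without GFP library 3, and from -0.04 to 0.03 over all libraries left out in turn. Over the same omissions Scap ran from -0.18 to 0.15 and Mylip from -0.27 to 0.01. Under the hairpin, Srebf2 was -0.05 with library size alone. No called gene changed sign in any comparison.

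Same-numbered libraries did not deviate together (correlations from -0.152 to 0.037), so the numbers were not taken as pairs. With the replicate block 18 genes were called on the diet, 1 (Hmgcs1) under Activin A, 9 under the hairpin and 2 for the difference between treatments, and under Activin A Insig1 was 0.08 and Srebf2 -0.00. Low counts limit Fdps, with 2 to 6 counts in 4 libraries.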

Other observations

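The 16 SREBP1 targets of lipid synthesis followed a like order of libraries. NASH diet GFP library 1 was the highest of its group in 16 of them and library 3 the lowest in 14, and Activin A library 2 was the highest in 15 and library 1 the lowest in 14. Scd1 makes up most of their summed level, with means of 8419 CPM per kilobase in Activin A livers, 5947 in NASH diet GFP livers, 4468 in hairpin livers, 6994 in scramble livers and 1068 in chow livers. The sum was 10231, 11289 and 10253 CPM per kilobase in Activin A livers, against 10604, 7651 and 4984 in NASH diet GFP livers. It was 7015, 5176 and 5285 in hairpin livers, against 8281, 8367 and 8335 in scramble livers, while the median log2 fold change of the 16 genes in that comparison was 0.07 with 4 genes higher and 4 lower, and 1385, 2449 and 1953 in chow livers.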
